A study of Mus musculus with 27 samples.

Results

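The transcripts of 9 calcium/calmodulin-dependent kinases were measured in adult mouse brain, in frontal cortex and in striatum. The genes were taken by symbol from the 52636 gene identifiers of the count tables, and all 9 were found. They are Camk2a, Camk2b, Camk2d and Camk2g, which encode the subunits of CaMKII, Camk1 and Camk1d of the CaMKI family, Camk4, and the upstream kinases Camkk1 and Camkk2. The mice were on the 129S1 background and about 2.5 months old. Wild-type mice were set against Igf2enh-/- mice, which are homozygous for a 4.9 kb deletion between H19 and Igf2 and keep 1 loxP site there after a Hprt-CRE transgene removed the selection cassette. The deletion is constitutive and therefore carried by every cell type. Frontal cortex was profiled from 6 wild-type and 6 Igf2enh-/- mice, with 3 females and 3 males in each group. Striatum was profiled from 7 wild-type mice (3 females, 4 males) and 8 Igf2enh-/- mice (4 females, 4 males). The labels do not tie a frontal cortex library to a striatal library of the same mouse, and the 27 libraries go by the number in their labels.

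These kinases read calcium signals through calmodulin, a small protein that binds calcium and then binds and opens the kinase. CaMKII is a multimeric enzyme of the postsynaptic density whose subunits phosphorylate each other on a threonine beside the calmodulin-binding segment, which keeps the enzyme active after calcium has fallen, and it is central to long-term synaptic potentiation. CaMKI and CaMKIV act in a cascade in which CaMKK1 or CaMKK2 phosphorylates their activation loop, and nuclear CaMKIV in turn phosphorylates the transcription factor CREB. CaMKK2 also activates the energy sensor AMPK.

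The CaMKII genes are close paralogs, so the coding bases around this threonine are shown to let the 75-base reads be judged against them. The threonine is codon 286 in Camk2a and codon 287 in the others. The stretches cover 60 coding bases of GENCODE vM1 transcripts, 5′ to 3′ on the coding strand, and capitals mark the positions at which the 4 CaMKII genes are not all identical.
Camk2b: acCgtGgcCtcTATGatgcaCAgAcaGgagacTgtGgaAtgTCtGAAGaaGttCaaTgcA
Camk2d: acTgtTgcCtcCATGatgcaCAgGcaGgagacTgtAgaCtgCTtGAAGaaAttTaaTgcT
Camk2g: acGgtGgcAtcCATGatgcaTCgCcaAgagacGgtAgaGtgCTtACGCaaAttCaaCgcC
Of these 60 bases, 24 varied among the 4 genes. Camk2b matched Camk2a at 52 bases, Camk2d at 48 and Camk2g at 41. Over the complete coding transcripts, 0 of the 75-base words of any of the 9 kinases occurred in another of the 9, so a full-length read without mismatches could not fit 2 members of the list. Their genes lie at chr11:5969629-6066357 (Camk2b), chr3:126595487-126846326 (Camk2d) and chr14:20734873-20794157 (Camk2g) in the GRCm38.p6 annotation of RefSeq.

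The depth ran from 23686945 to 33926904 counts per library, so that 1 CPM (the counts of a gene scaled by library size) stood for between 23.7 and 33.9 counts. All 9 kinases passed the filter of at least 1 CPM in every library. In frontal cortex, 8 cortical projection neuron markers summed to between 2219 and 2429 CPM and 8 medium spiny neuron markers, which mark the principal neuron of the striatum, to between 126 and 196 CPM. In striatum the cortical markers summed to between 34.3 and 1157 CPM and the medium spiny neuron markers to between 3021 and 8308 CPM. The cortical sum exceeded 500 CPM in 5 striatal libraries, namely 20 (1157 CPM), 23 (853 CPM), 16 (816 CPM), 26 (697 CPM) and 19 (539 CPM). Oligodendrocyte markers (7 genes) summed to between 968 and 2068 CPM in frontal cortex and between 4785 and 10449 CPM in striatum. Choroid plexus markers (6 genes) stood at 3334 CPM in library 15. The deletion lies between genes, so no gene count checks the genotype labels directly.

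Camk2a was the most abundant of the 9 transcripts per kb of exon in every group, and the order of the others differed between the regions. In wild-type frontal cortex Camk2a stood at 786 ± 46.8 CPM per kb (SD, n = 6), followed by Camkk2 at 170 ± 7.96, Camk2b at 108 ± 1.54, Camk2g at 81.2 ± 2.42 and Camkk1 at 46.8 ± 4.15 CPM per kb. Camk4 (28 ± 1.16) and Camk1d (27.5 ± 0.841) came next, with overlapping libraries. Camk1 (13.9 ± 0.452) and Camk2d (7.87 ± 0.585) were lowest on this scale. In wild-type striatum Camk2a stood at 391 ± 78 CPM per kb (SD, n = 7), and Camk2b at 181 ± 26.6 had passed Camkk2 at 142 ± 9.52, although the libraries of these neighbours overlapped. Camk4 (46.2 ± 7.85), Camk2g (33.0 ± 14.4), Camkk1 (30.8 ± 2.63) and Camk1d (30.1 ± 2.29) formed a group in which each overlapped the next. Camk1 (5.58 ± 2.24) and Camk2d (3.85 ± 1.96) were again lowest, and their libraries also overlapped. The order between kinases depends on the exon length used as divisor. For Camk1 this length was 6.067 kb, but its 2 coding transcripts held only 1495 words of 75 bases. Its low rank per kb therefore holds for that exon length only, and its rank at the length of its coding transcripts was not computed. The change of order between Camk2b and Camkk2 was seen per kb only. In CPM the wild-type mean of Camk2b was above that of Camkk2 in frontal cortex (986 against 541) and in striatum (1654 against 450).

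**Figure D1:**
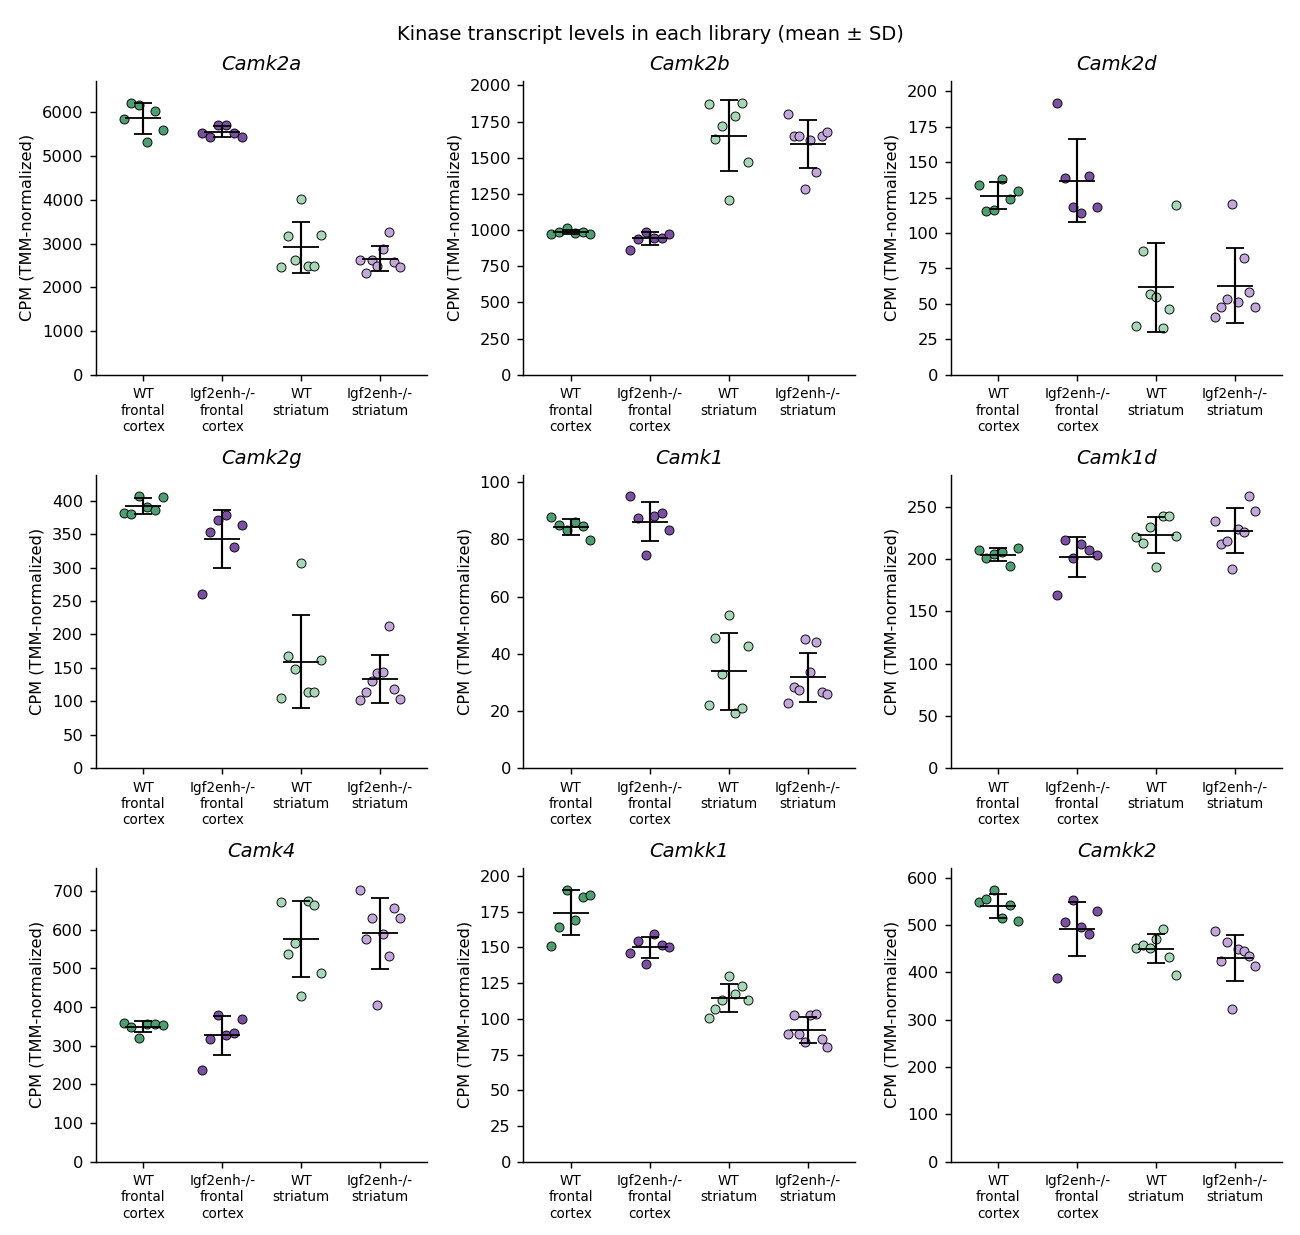
Each panel plots the TMM-normalized CPM of 1 kinase (linear axis from 0) in the 27 libraries, with points for libraries and bars for the mean ± SD of each group. Camk2a, Camk1 and Camkk1 lie lower in every striatal library than in any frontal cortex library, and Camk2b and Camk4 lie higher.

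The first comparison asked how the kinases differ between striatum and frontal cortex. In wild-type mice 6 of the 9 kinases were lower in striatum, 2 were higher and Camk1d did not pass the test (adjusted p under 0.05 in edgeR's quasi-likelihood test). Regional differences were widespread, as 67.7% of 13414 genes passed in the same comparison (33.2% lower and 34.5% higher), so the number of kinases called is not itself a distinguishing feature. In size, 4 of 9 kinases changed by more than 1 on the log2 scale, against 8.45% of all genes. The kinases were chosen with earlier results of these data known, so the values set against all genes here describe the list and do not test it. The median absolute log2 fold change was 0.75 over the 9 kinases and 0.23 over all genes tested. In 7 of 9 kinases the wild-type striatal and frontal cortex libraries did not overlap, against 37.9% of all genes. Whole tissue was sequenced, so fewer cells of a type and less RNA per cell cannot be told apart.

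Camk2a, the main forebrain subunit of CaMKII, was about 2-fold lower in striatum. Its level ran from 5323 to 6220 CPM in wild-type frontal cortex (median 5937) and from 2466 to 4030 CPM in wild-type striatum (median 2618). In Igf2enh-/- mice it ran from 5437 to 5718 CPM in frontal cortex (median 5533) and from 2326 to 3267 CPM in striatum (median 2603). Every striatal library lay below every frontal cortex library, and the highest striatal value belonged to library 20. The log2 fold change, striatum over frontal cortex, was −1.01 in wild-type mice (standard error, SE, 0.093, adjusted p = 9.46e-10, edgeR) and −1.07 in Igf2enh-/- mice (SE 0.0894, adjusted p = 1.68e-10, edgeR).

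Camk2b, whose subunit binds actin and anchors the holoenzyme in dendritic spines, went the other way. It ran from 975 to 1013 CPM in wild-type frontal cortex (median 981) and from 1209 to 1880 CPM in wild-type striatum (median 1723). The corresponding values in Igf2enh-/- mice were 865 to 988 CPM (median 943) and 1282 to 1802 CPM (median 1652). No striatal library reached down to the frontal cortex range, and the lowest striatal libraries were 20, 19, 23 and 26. The log2 fold change was 0.75 in both genotypes (SE 0.078 and adjusted p = 7.17e-09 in wild-type, SE 0.0761 and adjusted p = 3.86e-09 in Igf2enh-/- mice, edgeR).

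Camk2g, a broadly expressed CaMKII subunit also known as a carrier of calmodulin to the nucleus, had a larger fall than Camk2a. In wild-type mice it ran from 380 to 407 CPM in frontal cortex (median 388) and from 105 to 306 CPM in striatum (median 148). In Igf2enh-/- mice it ran from 260 to 378 CPM in frontal cortex (median 359) and from 102 to 212 CPM in striatum (median 124). The regions did not overlap within either genotype, although library 20 (306 CPM) lay above library 1 of Igf2enh-/- frontal cortex (260 CPM). The log2 fold change was −1.32 (SE 0.182, adjusted p = 6.09e-07, edgeR) in wild-type and −1.37 (SE 0.175, adjusted p = 1.68e-07, edgeR) in Igf2enh-/- mice.

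Camk2d, the subunit best known from heart muscle, was the least abundant of the 4 and the most variable. It ran from 116 to 139 CPM in wild-type frontal cortex (median 127) and from 33.0 to 120 CPM in wild-type striatum (median 54.6). Here the regions overlapped, because library 26 stood at 120 CPM, and in Igf2enh-/- mice library 19 stood at 121 CPM in striatum against a frontal cortex range of 114 to 192 CPM. The log2 fold change was −1.04 (SE 0.254, adjusted p = 0.000811, edgeR) in wild-type and −1.15 (SE 0.245, adjusted p = 0.000192, edgeR) in Igf2enh-/- mice.

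**Figure D2:**
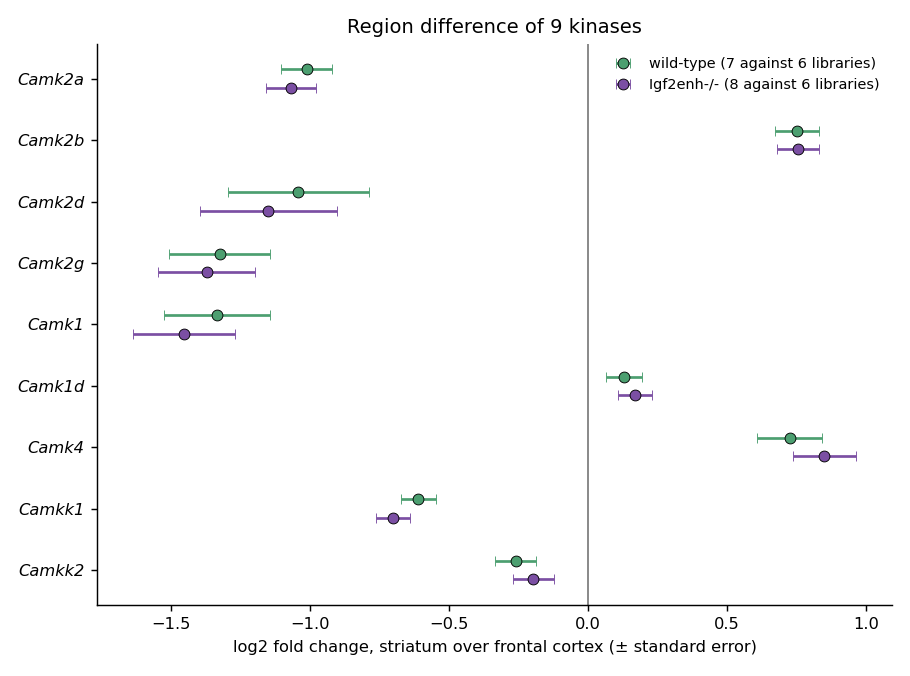
Points give the log2 fold change of each kinase, striatum over frontal cortex, and bars its standard error from the edgeR fit, in wild-type and Igf2enh-/- mice. Camk2b, Camk4 and Camk1d lie right of 0 and the other 6 kinases left of 0 in both genotypes, with Camk1 (−1.33 and −1.45) and Camk2g (−1.32 and −1.37) furthest from 0.

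These opposite differences changed the make-up of the CaMKII transcripts. The share of Camk2a among the CPM of the 4 CaMKII genes was 79.5% ± 1.04 (SD, n = 6) in wild-type frontal cortex and 60.4% ± 6.32 (SD, n = 7) in wild-type striatum. It was 79.6% ± 0.664 (SD, n = 6) and 59.7% ± 3.12 (SD, n = 8) in Igf2enh-/- mice. The difference of −19.1 percentage points in wild-type mice gave p = 0.00117 in a two-sided exact permutation test, and that of −20.0 points in Igf2enh-/- mice gave p = 0.000666. Each is the smallest p that its design allows, and both were 0.00233 after adjustment over the 4 comparisons of this exact permutation test. Every striatal library already lay below all frontal cortex libraries for Camk2a and above them for Camk2b, which together held most of these CPM. The separation of the shares follows from that, so these p-values are not separate support. The ratio of Camk2a to Camk2b CPM was 5.95 ± 0.311 in frontal cortex and 1.86 ± 0.729 in striatum of wild-type mice, and 5.91 ± 0.28 and 1.69 ± 0.313 in Igf2enh-/- mice. Per kb of exon, Camk2a held 79.9% of CaMKII transcripts in wild-type frontal cortex and 63.7% in wild-type striatum, while Camk2b held 11.0% and 30.4%. Camk2g went from 8.28% to 5.28% and Camk2d from 0.804% to 0.625% on that scale. Library 20 stood apart among striatal libraries with 73.0% Camk2a and 17.9% Camk2b per kb.

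**Figure D3:**
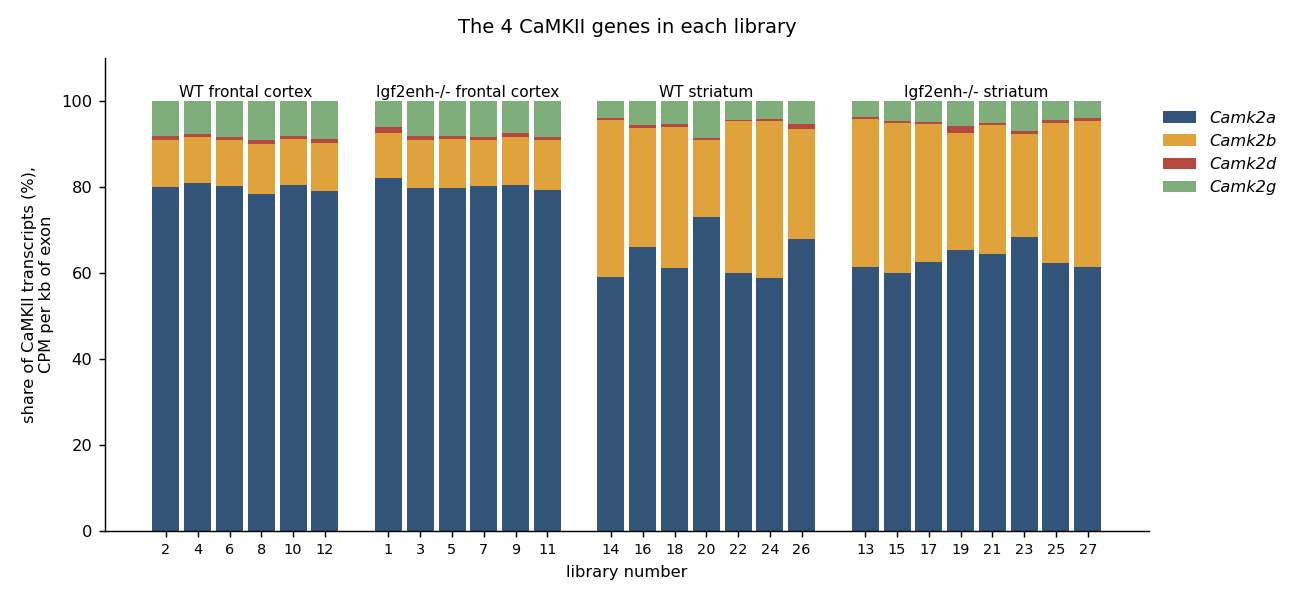
Stacked bars give the share of each CaMKII gene in the CPM per kb of exon of the 4 genes (percent, axis from 0) for each of the 27 libraries, ordered by group. The Camk2a share lies between 78.4% and 82.2% in the 12 frontal cortex libraries and between 58.9% and 73.0% in the 15 striatal libraries, where Camk2b takes up most of the difference.

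Among the kinases of the CaMKK cascade, Camk1 and Camkk1 were lower in striatum and Camk4 higher. Camk1, a cytosolic kinase linked to neurite growth, had a regional difference close to that of Camk2g. It ran from 79.9 to 87.9 CPM in wild-type frontal cortex (median 84.8) and from 19.5 to 53.4 CPM in wild-type striatum (median 33.0), without overlap. In Igf2enh-/- mice the ranges were 74.6 to 95.1 CPM (median 87.8) and 22.7 to 45.3 CPM (median 27.8), also without overlap. The log2 fold changes were −1.33 (SE 0.190, adjusted p = 1.09e-06, edgeR) and −1.45 (SE 0.183, adjusted p = 1.46e-07, edgeR). Camk1 lies at chr6:113334124-113343922 on the minus strand (GRCm38.p6). The 250 bases before its start site, chr6:113343923-113344172, are shown because Camk1 was among the kinases of largest regional difference and because CREB, which CaMK cascades phosphorylate, binds the cyclic AMP response element with the core TGACG or, on the other strand, CGTCA (in capitals).
Camk1: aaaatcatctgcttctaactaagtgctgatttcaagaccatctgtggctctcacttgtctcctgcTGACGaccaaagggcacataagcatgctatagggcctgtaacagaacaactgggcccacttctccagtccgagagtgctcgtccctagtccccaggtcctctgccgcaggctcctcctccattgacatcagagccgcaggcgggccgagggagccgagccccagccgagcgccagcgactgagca
Binding by CREB was not tested. The windows of Camk2a, Camk2g and Camk4 are not reported here. Among the other kinases, the core occurred once in the Camk1 window and once in that of Camkk1, and not in the windows of Camk2b, Camk2d, Camkk2 or Camk1d. It occurs on either strand in 17.8% of 32851 RefSeq promoter windows of the same length. The full palindrome TGACGTCA, which holds the core on both strands, occurs in 1.55% of them and not in the Camk1 window.

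Camk4, a largely neuronal kinase of the nucleus, rose in striatum. It ran from 320 to 359 CPM in wild-type frontal cortex (median 354) and from 428 to 673 CPM in wild-type striatum (median 566). Among Igf2enh-/- mice it ran from 236 to 379 CPM (median 330) and from 406 to 703 CPM (median 609). The regions did not overlap in either genotype, and libraries 19 and 20 were the lowest in striatum. The fitted log2 change was 0.72 (SE 0.117, adjusted p = 6.1e-06, edgeR) in wild-type and 0.85 (SE 0.114, adjusted p = 4e-07, edgeR) in Igf2enh-/- mice.

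Camk1d, the delta member of the CaMKI family, differed least between the regions. It ran from 193 to 211 CPM in wild-type frontal cortex (median 206) and from 192 to 241 CPM in wild-type striatum (median 222), with overlap. The estimate was 0.13 (SE 0.0645, adjusted p = 0.0782, edgeR) in wild-type mice. Among Igf2enh-/- mice it ran from 166 to 219 CPM and from 190 to 260 CPM, and the log2 fold change of 0.17 passed (SE 0.0626, adjusted p = 0.0196, edgeR). Without library 1 of Igf2enh-/- frontal cortex that call was lost (0.12, adjusted p = 0.0804, edgeR). Camk1d lies at chr2:5293457-5714860.

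Camkk1, one of the upstream kinases of the cascade, was lower in striatum without overlap. It ran from 151 to 190 CPM in wild-type frontal cortex (median 177) and from 100 to 130 CPM in wild-type striatum (median 113). Among Igf2enh-/- mice it ran from 138 to 160 CPM (median 151) and from 80.4 to 103 CPM (median 89.4). Striatum over frontal cortex, the log2 value was −0.61 (SE 0.0629, adjusted p = 6.31e-09, edgeR) in wild-type and −0.70 (SE 0.0608, adjusted p = 2.96e-10, edgeR) in Igf2enh-/- mice. The gene lies at chr11:73016043-73042073.

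Camkk2, the second upstream kinase, at chr5:122718380-122779522, showed a small fall. It ran from 507 to 574 CPM in wild-type frontal cortex (median 545) and from 395 to 491 CPM in wild-type striatum (median 451), without overlap. Among Igf2enh-/- mice the ranges of 388 to 554 CPM (median 501) and 323 to 487 CPM (median 440) overlapped. On the log2 scale the difference was −0.26 (SE 0.0744, adjusted p = 0.0033, edgeR) in wild-type and −0.20 (SE 0.072, adjusted p = 0.0183, edgeR) in Igf2enh-/- mice. The second of these calls was lost without library 5, 11 or 19, with log2 fold changes between −0.17 and −0.14.

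In Igf2enh-/- mice all 9 kinases passed between the regions, against 68.9% of 13414 genes, with 6 lower and 3 higher in striatum (34.5% of genes in each direction). In 6 of 9 the regions did not overlap (42.1% of genes), and 4 of 9 changed by more than 1 on the log2 scale (9.11% of genes). The groups compared in the 2 genotypes share no library, but both contrasts came from the same fit of all 27 libraries. Their standard errors and p-values therefore rest on a shared estimate of spread and are not independent. The difference between the regional contrasts of the 2 genotypes was not significant for any kinase (0 of 9) or for any other gene (0% of 13414 called by edgeR, and 0 genes under every alternative run). At an unadjusted p under 0.05 there were 405 such genes, or 3.02%, and again 0 of 9 kinases. The estimates for the kinases lay between −0.12 (Camk1) and 0.12 (Camk4) on the log2 scale, with standard errors from 0.0878 to 0.353, so a difference of that order could not be resolved for Camk2d in particular.

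Several kinases varied with the cortical markers among the striatal libraries. In library 20, where these markers were highest, Camk2a (4030 CPM), Camk2g (306 CPM) and Camk1 (53.4 CPM) were the highest of the 15 striatal libraries and Camk2b (1209 CPM) the lowest. Camk2d did not follow them, as it stood at 54.6 CPM there, the wild-type striatal median, and was highest in libraries 19 and 26. Library 20 also had the lowest medium spiny neuron sum (3021 CPM) and the highest oligodendrocyte (10449 CPM), astrocyte (1675 CPM) and GABAergic interneuron (416 CPM) sums of the striatal libraries. In library 22, where they were lowest (34.3 CPM), Camk2a stood at 2489 CPM, Camk2g at 114 CPM, Camk1 at 19.5 CPM and Camk2b at 1790 CPM. Without the 5 striatal libraries above 500 CPM of cortical markers, an alternative chosen after seeing the data, the wild-type log2 fold changes were larger for Camk2a (−1.21), Camk2g (−1.70), Camk1 (−1.82), Camk2d (−1.56), Camk2b (0.89) and Camk4 (0.89). Those of Camkk1 (−0.61) and Camkk2 (−0.24) moved little, and Camk1d passed (0.20, adjusted p = 0.00551, edgeR). Among Igf2enh-/- mice all kinases but Camkk2 (−0.14, adjusted p = 0.0546, edgeR) passed without these libraries. GABAergic interneuron markers (6 genes) summed to between 549 and 671 CPM in frontal cortex and between 165 and 416 CPM in striatum. In striatum this sum was highest in libraries 20 (416 CPM), 16 (344 CPM) and 23 (335 CPM), which also had the highest cortical sums, and stood at 243 CPM in library 19. The list includes Cck, which is not confined to interneurons, so the sum does not measure interneurons alone. The GABAergic, medium spiny neuron and oligodendrocyte markers separated the regions in every library, and their part in the kinase differences was not tested.

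**Figure D4:**
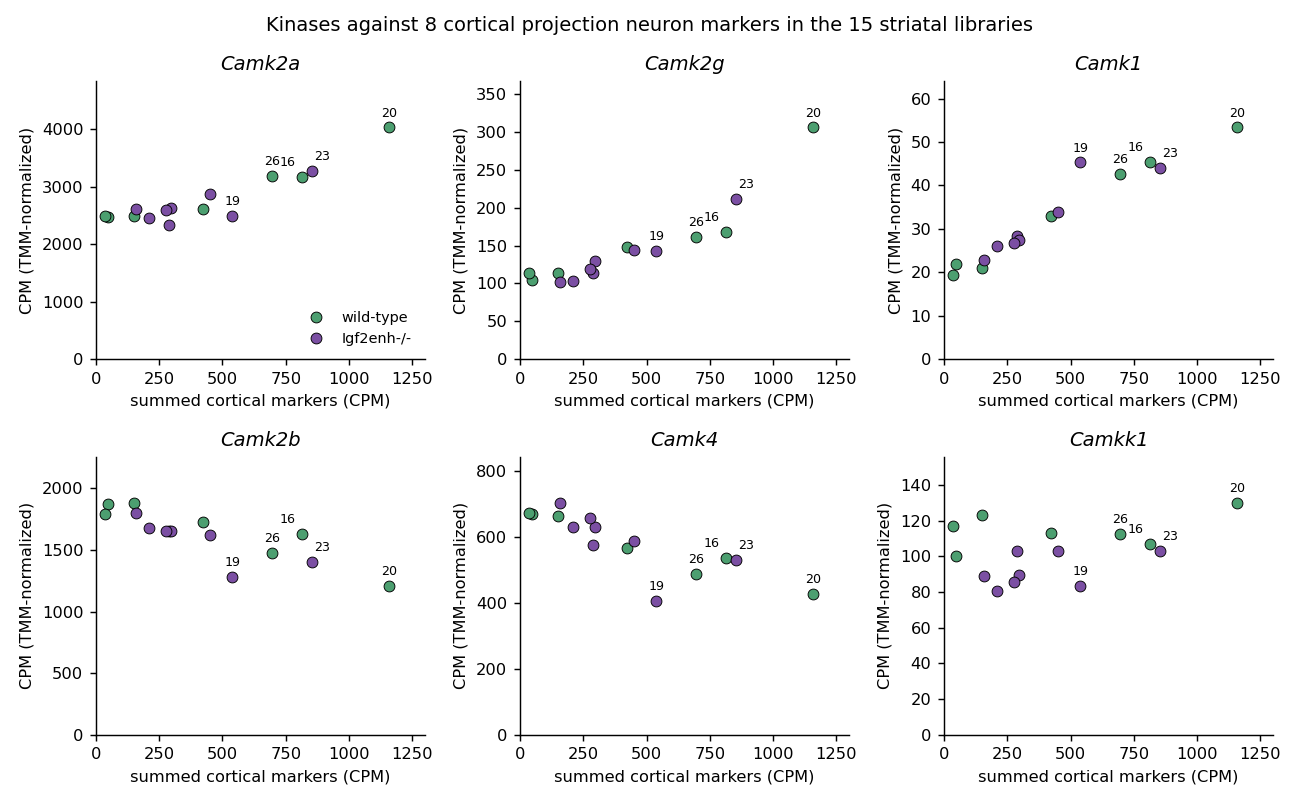
Each panel plots the TMM-normalized CPM of 1 kinase against the summed CPM of 8 cortical projection neuron markers in the 15 striatal libraries (both axes linear from 0), coloured by genotype, with library numbers given above 500 CPM. Camk2a, Camk2g and Camk1 rise towards library 20 while Camk2b and Camk4 fall, with library 20 at 4030 CPM of Camk2a and 1209 CPM of Camk2b.

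After the mean of each of the 4 groups was subtracted, the kinases fell into opposing patterns over the 27 libraries. Pearson's r of log2 CPM was 0.86 between Camk2a and Camk2g, 0.80 between Camk2g and Camk1 and 0.79 between Camk2d and Camk1. Camk2b and Camk4 were alike (r = 0.88) and ran against Camk1 (r = −0.88 and −0.82). Camkk1 had no r above 0.44 in size with any other kinase. These values are descriptions only, since the libraries share dissection and depth. Groups of wider spread also weigh more in them. From wild-type frontal cortex to wild-type striatum, the SD went from 2.74 to 13.6 CPM for Camk1 and from 14.0 to 243 CPM for Camk2b. Among the kinases only Camkk1 went the other way (15.5 to 9.79 CPM). Values of r within a region were not computed. Among the 13413 other genes tested, the most like Camk2a were Pip5k1c (r = 0.94) and Plch2 (0.94), both of phosphoinositide metabolism. Those most like Camk2b were the calcium channel subunit Cacna2d3 (0.97) and the calmodulin-dependent phosphodiesterase Pde1b (0.97). Camk4 was most like Ppp1r1b (0.93), the DARPP-32 phosphoprotein of medium spiny neurons, and Ano3 (0.93). Camk2d was most like Grin3a (0.97) and the calcium pump Atp2b4 (0.96), Camk2g like Osbpl1a (0.98) and the potassium channel Kcnh7 (0.97), and Camk1 like Cep170b (0.97) and the potassium channel Kcnc4 (0.97). Camk1d was most like Plcb1 (0.86), and Camkk2 like Abcb9 (0.91) and Osbp2 (0.91). Camkk1 had the weakest partners, which were the circadian regulator Ciart (0.78) and the glucocorticoid-induced gene Tsc22d3 (0.75).

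The rest of the pathway held genes higher and genes lower in striatum, and its counts are to be read against the 67.7% of all genes called in wild-type mice (34.5% higher and 33.2% lower). Of 7 genes in the list of calmodulin and its buffers, 3 were higher and 3 lower in wild-type striatum. The buffer Pcp4 (log2 fold change 2.09) and its paralog Pcp4l1 (2.75, from 55.7 ± 6.88 to 371 ± 81.6 CPM) were higher. Whether Pcp4l1 buffers calmodulin was not tested. The calmodulin gene Calm3 (−0.52) and the buffer Nrgn (−0.43) were lower. Of 7 CaMK inhibitors and phosphatases, 2 were higher and 4 lower, among them the CaMKII inhibitor Camk2n2 (−1.34), the CaMK phosphatases Ppm1e (−1.58) and Ppm1f (−0.15), and, in the other direction, the phosphatase 1 subunit Ppp1ca (1.15) and its anchor Ppp1r9b (0.30). The list of other kinases of the same group also holds Caskin1, which is a scaffold and not a kinase. Of its 14 tested genes, 6 were higher, including Dclk2 (0.87), the pseudokinase Camkv (0.91) and Dclk3 (0.77), and 4 lower, including Camk1g (−0.83) and Cask (−0.38). Dapk2 and Mylk3 did not pass the filter.

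Calcineurin, the calmodulin-dependent phosphatase that opposes many kinase actions, showed 2 genes higher and 2 lower of 7 tested in wild-type mice. Its catalytic subunit Ppp3ca was higher (0.71) and Ppp3cc (−0.71) and Ppp3cb (−0.22) were lower, while the regulator Rcan3 was higher (0.89) and Rcan2 did not pass (0.19, adjusted p = 0.0554, edgeR). Ppp3r2 did not pass the filter. Of 15 other calmodulin-dependent enzymes, 4 were higher and 9 lower. Pde1b rose from 136 ± 3.38 to 1383 ± 406 CPM (log2 fold change 3.35), and Pde1c (2.70) and the calcium pump Atp2b1 (0.92) were also higher. The Ras activator Rasgrf2 (−2.26) and the elongation factor kinase Eef2k (−0.65) were lower.

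Of 15 synaptic partners and substrates of CaMKII, 7 were higher and 7 lower in wild-type striatum. The GTPase Rem2 rose from 3.18 ± 0.521 to 58.2 ± 15.9 CPM (4.21), the actinin Actn2 by 3.42 and the scaffold Shank3 by 0.88 on the log2 scale, while the synapsins Syn1 (−1.13) and Syn2 (−0.98) were lower. Of 14 targets of CaMKK, CaMKI and CaMKIV, 5 were higher and 6 lower. The AMPK catalytic subunits differed in direction, with Prkaa2 lower (−1.08) and Prkaa1 higher (0.34), and so did the transcription factors Mef2c (−1.71) and Mef2a (0.55), while the guanine nucleotide exchange factor Arhgef7 was lower (−0.28). Among Igf2enh-/- mice, where 68.9% of all genes were called (34.5% in each direction), the counts higher and lower were 2 and 3 for calmodulin and its buffers, 2 and 4 for inhibitors and phosphatases, and 6 and 4 for other kinases. They were 3 and 3 for calcineurin, 4 and 9 for other enzymes, 6 and 7 for synaptic partners and 3 and 5 for the targets of the cascade. The median log2 fold change of all genes was 0.01 in wild-type mice, and those of the 7 lists lay between −0.35 (other enzymes) and 0.07 (other kinases).

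The second comparison asked whether loss of the enhancer changed the kinases within a region. By edgeR's quasi-likelihood test, none of the 9 passed in frontal cortex, where 53 of 13936 genes (0.38%) did, and none in striatum, where 5 of 13875 genes (0.036%) did. At an unadjusted p under 0.05 there were 2 of 9 kinases in frontal cortex, against 13.5% of genes, and 1 of 9 in striatum, against 10.1%. Over the 9 kinases the median log2 fold change, Igf2enh-/- over wild-type, was −0.077 for frontal cortex and −0.070 for striatum, against 0.00073 and 0.0004 over all genes.

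Camkk1 had the smallest p of the 9 in both regions and was lower in Igf2enh-/- mice. In frontal cortex the wild-type libraries stood at 151, 164, 169, 185, 187 and 190 CPM and the Igf2enh-/- libraries at 138, 146, 150, 152, 154 and 160 CPM. Only library 2, at 151 CPM, brought the wild-type range into that of the Igf2enh-/- mice. In striatum the wild-type libraries ran from 100 to 130 CPM (median 113) and the Igf2enh-/- libraries from 80.4 to 103 CPM (median 89.4), so that the ranges met between 100 and 103 CPM. Its log2 fold change was −0.22 in frontal cortex (SE 0.0507, unadjusted p = 0.000687, adjusted p = 0.0754, edgeR). For striatum the estimate was −0.31 (SE 0.066, unadjusted p = 0.00033, adjusted p = 0.131, edgeR). By edgeR's likelihood ratio test, the one named in the methods of the study, the same fold changes passed, with adjusted p = 0.0109 in frontal cortex and adjusted p = 0.0125 in striatum, and by DESeq2 with adjusted p = 0.009 and adjusted p = 0.00502. Over all alternatives its adjusted p lay between 0.00113 and 0.209 in frontal cortex and between 0.00502 and 0.299 in striatum. In frontal cortex it also passed without a filter (adjusted p = 0.00113) and without library 2 (adjusted p = 0.0377), and in striatum in a fit of all 27 libraries (adjusted p = 0.0144, edgeR). The estimate lay between −0.25 and −0.18 in frontal cortex and between −0.34 and −0.27 in striatum when each library was left out in turn. The estimate in striatum was −0.30 without the 5 libraries high in cortical markers. In females and males the log2 fold change was −0.21 and −0.23 in frontal cortex and −0.21 and −0.39 in striatum, and the sexes did not differ significantly (unadjusted p = 0.823 and 0.2, edgeR).

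**Figure D5:**
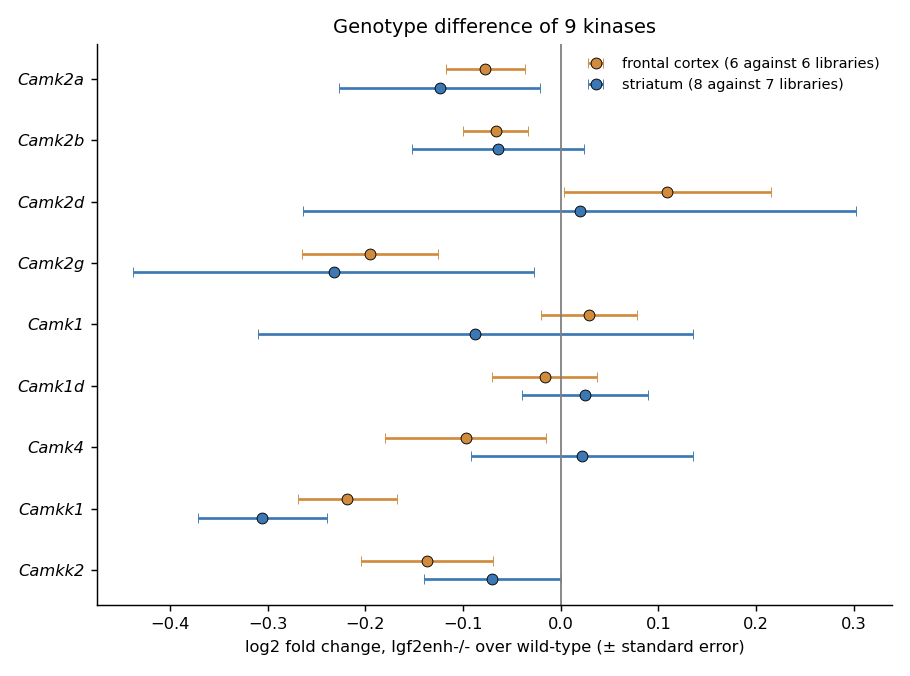
Points give the log2 fold change of each kinase, Igf2enh-/- over wild-type, and bars its standard error from the edgeR fit, in frontal cortex and striatum. Camkk1 lies furthest below 0 in both regions (−0.22 and −0.31), and the standard errors in striatum are wide for Camk2d (0.283), Camk1 (0.223) and Camk2g (0.205).

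Camk2g was the 1 kinase whose genotypes did not overlap in frontal cortex, where 1.29% of all genes did not overlap. In striatum 0 of 9 did not overlap, against 0.231% of genes. The wild-type libraries stood at 380, 381, 386, 391, 405 and 407 CPM and the Igf2enh-/- libraries at 260, 331, 354, 364, 371 and 378 CPM. The gap between the groups was small, and library 1 at 260 CPM lay well below the rest. That library also had the lowest oligodendrocyte (968 CPM) and medium spiny neuron (126 CPM) sums and the highest meningeal fibroblast (122 CPM) and choroid plexus (8.63 CPM) sums of the frontal cortex libraries. This gave a log2 fold change of −0.20 (SE 0.0694, unadjusted p = 0.0135, adjusted p = 0.24, edgeR) in frontal cortex, and −0.13 without library 1. In striatum it was −0.23 with a wide standard error (0.205, adjusted p = 0.766, edgeR), and without the 5 libraries high in cortical markers it was −0.020.

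The other kinases showed little difference between the genotypes at this precision. Camk2a stood at 5864 ± 349 CPM in wild-type and 5562 ± 126 CPM in Igf2enh-/- frontal cortex (SD, n = 6 each), which is −0.077 on the log2 scale (SE 0.04, adjusted p = 0.42, edgeR). In striatum it stood at 2921 ± 583 CPM (SD, n = 7) and 2657 ± 292 CPM (SD, n = 8), which is −0.12 on the log2 scale (SE 0.103, adjusted p = 0.747, edgeR), which turned to 0.037 without the 5 libraries high in cortical markers. Camk2b changed by −0.067 and −0.064 in frontal cortex and striatum, and Camkk2 by −0.14 and −0.07. Without library 1 the frontal cortex values were −0.042 for Camk2b and −0.069 for Camkk2. Camk4 (−0.098 and 0.022), Camk1 (0.029 and −0.087), Camk1d (−0.016 and 0.025) and Camk2d (0.11 and 0.02) had estimates within 2 standard errors of 0. The Camk2a share of CaMKII CPM differed by 0.0885 percentage points between the genotypes in frontal cortex (p = 0.883, exact permutation test) and by −0.776 points in striatum (p = 0.766, exact permutation test).

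Of the 82 listed genes of the pathway, Itpka was called for genotype in frontal cortex by edgeR's quasi-likelihood test, against 0.38% of 13936 genes. In striatum 0 were called, against 0.036% of 13875 genes. The count in frontal cortex depended on the fit, with 2 calmodulin-dependent enzymes called by the likelihood ratio test, by DESeq2 and without a filter, and 0 in a fit of all 27 libraries. Synaptic partners of CaMKII were called by DESeq2 (1 gene) and without a filter (2 genes). Over all genes, the likelihood ratio test called 232, DESeq2 242, the fit without a filter 459 and the fit of all 27 libraries 20. The lists were chosen with earlier results of these data known, so these counts describe the lists and do not test them. Itpka encodes an inositol trisphosphate kinase that calmodulin activates and that sits on spine actin. Its wild-type libraries stood at 143, 151, 157, 160, 164 and 165 CPM and its Igf2enh-/- libraries at 123, 126, 132, 135, 141 and 143 CPM, just short of overlap. The fitted log2 change was −0.24 (SE 0.0403, adjusted p = 0.0271, edgeR). It was −0.16 in striatum (SE 0.0705, adjusted p = 0.481, edgeR), and the difference between the regions was not significant (0.08, unadjusted p = 0.373, edgeR).

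Sex was a term of every fit. None of the 9 kinases differed between males and females in frontal cortex, where 0.0431% of genes did, or in striatum, where 0.0432% did. The genotype effect differed between the sexes for none of the 9 in frontal cortex (0.0215% of genes) or striatum (0% of genes). The smallest unadjusted p of a kinase for that term was 0.0776 in edgeR, for Camk2d in frontal cortex, where the log2 fold change was 0.29 in females and −0.076 in males.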

How the data were processed

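RNA of 27 mouse brain libraries was sequenced by the authors as 75-base single-end reads from ribosome-depleted total RNA. Trimming (Trim Galore 0.5.0) and alignment by STAR to GRCm38 with GENCODE vM15 were done by the authors, who deposited raw counts per gene without normalization. The counting tool and its strand setting were not given in the sources used here, so overlapping or antisense transcription cannot be told apart. Every column of the deposited counts was matched to a labelled library, and 0 pairs of libraries were identical.

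Counts were scaled to CPM with TMM factors and tested with edgeR 4.0.16 in R 4.3.3 (quasi-likelihood F-test, a filter of 1 CPM in all libraries of the fit, sex as a term, Benjamini-Hochberg over all genes). Regional contrasts came from a fit of all 27 libraries with 4 group terms, treating libraries as independent mice. Genotype was fitted within each region. Shares were compared by exact permutation (scipy 1.17.1). Correlations used log2 of CPM plus 0.5. Symbols were matched for 32688 of 52636 identifiers. Exon lengths and coding sequences came from GENCODE vM1 on NCBIM37, and promoters and coordinates from RefSeq on GRCm38.p6. Tested on simulated counts in which 200 genes were shifted by a log2 value of 0.8, the edgeR steps recovered 95.5% (region), 97% (genotype in frontal cortex) and 86% (genotype in striatum) of them. The genotype estimates of the kinases were smaller, from −0.22 to 0.11 in frontal cortex and from −0.31 to 0.025 in striatum. Recovery of shifts of that size was not simulated.

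The alternatives were DESeq2 1.42.0, edgeR's likelihood ratio test, voom in limma 3.58.1, other scalings and filters, no sex term, and leaving out libraries. The kinases, 7 pathway lists and 9 marker lists were chosen with earlier results of these data known. All 9 kinases were named, with up to 5 genes of smallest p per list in the wild-type regional comparison, any list gene called for genotype, and the 2 genes most like each kinase. Of the genes this rule names, 2 are not reported here.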

Additional observations from a re-analysis of the deposited data

Results flagged for a closer look

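A library was taken as standing apart when the gap on the log2 scale between the highest or lowest value of a group and its neighbour exceeded Dixon's critical share of the group's range. Of 36 kinase and group pairs, 7 met this, and chance gives about 1 in 20. Library 1 of Igf2enh-/- frontal cortex was the lowest for Camk2b (865 CPM against 942 to 988), Camk2g (260 CPM against 331 to 378) and Camk1d (166 CPM against 202 to 219). Oligodendrocyte markers were lowest in the same library (968 CPM). Library 6 of wild-type frontal cortex was the highest for Camk2b (1013 CPM against 975 to 988) and the lowest for Camk4 (320 CPM against 348 to 359). In Igf2enh-/- striatum, library 23 was the highest for Camk2g (212 CPM against 102 to 144), with cortical markers at 853 CPM, and library 19 was the lowest for Camkk2 (323 CPM against 414 to 487), with cortical markers at 539 CPM.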

How the results depend on the processing

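Between the regions, all 9 kinases kept their direction in both genotypes under all alternatives and all single-library omissions, and 8 or 9 were called. The calls that changed were those of Camk1d and, in Igf2enh-/- mice, Camkk2. The genotype calls depended on the test and filter. In frontal cortex the 53 genes became 232 with 1 kinase (Camkk1) by edgeR's likelihood ratio test, 242 with 1 by DESeq2, 459 with 2 without a filter (Camkk1 and Camk2g) and 20 in a fit of all 27 libraries. Leaving out a library gave between 8 (without library 10) and 96 genes (without library 1), and 0 or 1 kinases, Camkk1 being called without library 2. In striatum the 5 genes became 56 with 1 kinase by the likelihood ratio test, 112 with 1 by DESeq2, 63 with 1 in a fit of all libraries, 13 with filterByExpr, 10 without a filter, and 3 both without the sex term and without the 5 libraries high in cortical markers. That kinase was Camkk1 each time, and single omissions gave 3 to 8 genes and 0 kinases. The cause of these shifts was not tested.

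Genotype estimates near 0 changed sign. In striatum Camk1 was at 0.0104 by limma-voom, 0.048 without libraries 15 and 20 and 0.19 without the 5 libraries. Without libraries 15 and 20 Camk2d was at −0.0098 and Camk4 at −0.016, and without the 5 libraries Camk2a was at 0.037 and Camk4 at −0.033. Single omissions gave −0.010 to 0.16 (Camk2d), −0.0048 to 0.073 (Camk1) and −0.049 to 0.035 (Camk1d) in frontal cortex. In striatum they gave −0.16 to 0.24 (Camk2d), −0.21 to 0.049 (Camk1), −0.0074 to 0.058 (Camk1d) and −0.028 to 0.082 (Camk4). The Camk2a share differed by −0.238 to 0.326 points in frontal cortex and −1.69 to 1.15 points in striatum, where library 20 set the sign. The call for Itpka was lost without library 4, 6, 8, 9 or 10 and in a fit of all 27 libraries (adjusted p up to 0.183, edgeR). Other genotype estimates kept their sign but moved by over 1.5 times. In frontal cortex, without library 1, these were Camk2g (−0.13), Camk2b (−0.042), Camkk2 (−0.069) and Camk4 (−0.021), and Camk4 also without library 5 (−0.16). In striatum they were Camk2a (−0.041) and Camk2g (−0.026) without library 20, Camkk2 without library 19 (−0.020) or 22, and Camk2b, which lay between −0.12 and −0.016 without library 19, 20, 22 or 24. Between the regions in wild-type mice, the order of Camk1 and Camk2g turned without library 20 (−1.46 and −1.54) and without library 2, 8, 10, 22 or 24. No paired analysis was possible because each library has a number of its own and the labels tie no libraries to the same mouse.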
